A study of Drosophila melanogaster with 28 samples.

Results

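Of the 28 mRNA libraries of Drosophila melanogaster embryos in the series, 2 are described here: the libraries labelled psch27, replicates 2 and 3, at 16-18 h of development. They were chosen because, together with the 3 libraries of the control stock w1118, they give the mean normalized counts of the authors' table named psce22. Column names and tables therefore disagree: the columns carry the name of one allele of Posterior sex combs (Psc) and the table made from them carries the name of another. With 269 sets of columns tried over 10534 genes, the recomputed means differed from that table by 0% for these columns, by up to 255% for the next best set and by up to 3570% for the columns labelled psce22. Replicate 1 of psch27 was left out, since the same comparison placed it with the columns labelled psce22 in the table named ez731. These means over both groups chose the libraries and are given as a description. The difference between the libraries and w1118 was not used in the choice. The paper calls the replicates biological, without saying whether they came from separate crosses, and the p-values reflect the spread of these libraries alone.

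The embryos labelled psch27 came from parents that carried the mutation over a balancer chromosome marked with GFP. Eggs were collected for 2 h and aged at 25 °C, and each library holds 20 to 30 embryos picked by morphology and lack of GFP. The mutant embryos thus had heterozygous mothers, and the stock differs from w1118 in its chromosomes as well as in the allele, so allele and genetic background cannot be told apart. The control w1118 carries a mutation of the eye pigment gene white (w), and no other allele is named for it. The other mutant groups of this age are labelled Dfd1 (2 libraries), ez731 (3), psce22 (2) and SppsG8810 (3), and together with w1118 and all of psch27 they make 16 libraries. These names too disagree with the tables, except for Dfd1: the columns labelled SppsG8810 give the means of the table named psch27 and those labelled ez731 give the means of the table named SppsG8810, each with 0% difference. Group names are therefore used here as column labels, not as settled genotypes. The study asked which chromatin factors act on the choice of transcript 3′ ends. Counts per gene, analysed here, measure transcript level and not the end used.

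Psc is a core subunit of Polycomb repressive complex 1 (PRC1), in which it acts beside Polycomb (Pc), polyhomeotic (ph) and Sce. PRC1 and the histone methyltransferase complex PRC2 keep developmental genes silent outside the cells in which they were switched on, and the Hox genes are the classical example. Su(z)2, the neighbour of Psc, encodes a related protein whose function overlaps with that of Psc.

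Total counts at 16-18 h ran from 17940038 to 22354257 per library, and the 2 psch27 libraries held 21206210 and 21827203. Levels are CPM (counts scaled to a total of 1000000 per library), with TMM scaling between libraries, changes are log2 fold changes ± SE, and adjusted p-values (threshold 0.05) come from the quasi-likelihood test of edgeR over 11366 genes. Both psch27 libraries differed from each other by no more than the w1118 libraries did (chi-square per degree of freedom 8.11 against 6.9 to 18.8), whereas replicate 1 of psch27 lay far from both (139 and 118). Summed over a list of 21 eggshell and yolk genes, the level was 232 and 66.8 CPM in the 2 psch27 libraries and 39.2, 13.2 and 10.3 CPM in w1118. These genes are normally used in the ovary and adult female, and the list reached 3976 CPM in Dfd1 replicate 1 and 1373 CPM in ez731 replicate 1. Markers of neurons, glia, neuroblasts, muscle, trachea, epidermis and hemocytes were all present in the psch27 libraries. A short list of larval fat body markers was low in both groups (0.801 to 0.972 CPM in psch27, 1.21 to 1.95 CPM in w1118), whereas the fat body gene apolpp stood at 1268 and 1260 CPM in psch27 and 995 to 1334 CPM in w1118. The 2 markers of the adult male accessory gland that were matched were also at 0.

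Psc transcripts were more abundant in both libraries than in w1118. Psc (FBgn0005624, dm6 2R:12965997-12980994, minus strand) stood at 121 and 128 CPM in psch27 replicates 2 and 3 and at 24.6, 28.2 and 31.4 CPM in w1118. The groups did not overlap, and Psc rose by 2.15 ± 0.09 on the log2 scale (adjusted p = 8.7e-09). The level differed sharply among the groups of this age. Psc was 18.1 CPM in the replicate of psch27 left out, 19.4 and 21.9 CPM in psce22, 25.6 to 30.0 CPM in ez731, 33.5 and 36.4 CPM in Dfd1 and 318 to 342 CPM in SppsG8810. The 2 psch27 libraries thus stood above every library of this age but those labelled SppsG8810. The columns labelled SppsG8810 are those that give the means of the table named psch27. Both sets of columns with high Psc thus belong to tables named after Psc alleles. In w1118 at 14-16 h, in a table normalized separately, Psc was 85.8 ± 3.41 CPM (SD, n = 4). A count over the whole gene does not show whether a transcript carries the lesion of an allele, so the level does not decide between the names psch27 and psce22. The call was lost only where replicate 1 was counted with replicates 2 and 3, as the labels group them (adjusted p = 0.065).

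**Figure D1:**
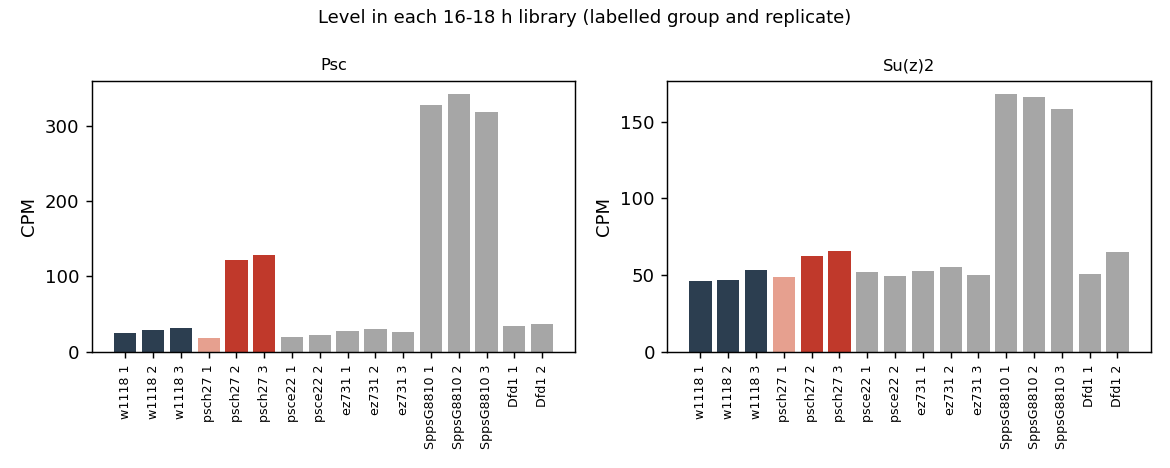
Level (CPM, bars, 1 per library) of Psc and of its neighbour Su(z)2 in the 16 libraries at 16-18 h, named by label and replicate, with w1118 dark, psch27 replicates 2 and 3 red, psch27 replicate 1 pale red and the other mutant groups gray. Psc is at 121 and 128 CPM in the red bars, above w1118 (24.6 to 31.4 CPM) and below SppsG8810 (318 to 342 CPM).

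Su(z)2 (2R:12996501-13007911, plus strand), which lies next to Psc, showed a smaller rise. It was 62.6 and 65.7 CPM in psch27 replicates 2 and 3 against 46.0, 46.6 and 53.3 CPM in w1118, and 158 to 168 CPM in SppsG8810. The change was 0.40 ± 0.09 (adjusted p = 0.0098), and it did not pass without psch27 replicate 3 (adjusted p = 0.091). Of the 24 other genes tested within 100 kb of Psc, a window chosen after the values were seen, 3 rose, Su(z)2 among them, and 1 fell, with a median change of 0.04. The other 2 that rose were CG13323 (2.16 ± 0.49, adjusted p = 0.017) and the antisense RNA gene CR45140 (1.78 ± 0.18, adjusted p = 2.0e-05), and CG44251 fell by 0.52 (adjusted p = 0.0054). CG13323 did not pass when psch27 replicate 2 (adjusted p = 0.16) or any 1 of the w1118 replicates (0.052, 0.058 and 0.062) was left out, nor CG44251 without psch27 replicate 3 (adjusted p = 0.08).

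Over all genes tested, 1556 (13.7%) differed between psch27 replicates 2 and 3 and w1118, 706 higher (6.21%) and 850 lower (7.48%). Of these, 172 rose (1.51% of all genes) and 223 fell (1.96%) by more than 2-fold. The libraries did not overlap between the groups in 47.9% of all genes (23.8% higher, 24.1% lower), so that non-overlap alone is common here. In bulk embryos, fewer cells of a type and less RNA per cell cannot be told apart. The count fell to 724 without psch27 replicate 2, to 783 without psch27 replicate 3 and to 1024 without w1118 replicate 2, and it was 1159 and 1245 without either of the other controls. The share called was 15.3% on the X chromosome, 13.8% on 2L, 15.1% on 2R, where Psc lies, 12.9% on 3L, 12% on 3R and 14.7% on the fourth chromosome. On the X chromosome 163 genes rose and 119 fell, whereas on 2R 137 rose and 206 fell.

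**Figure D2:**
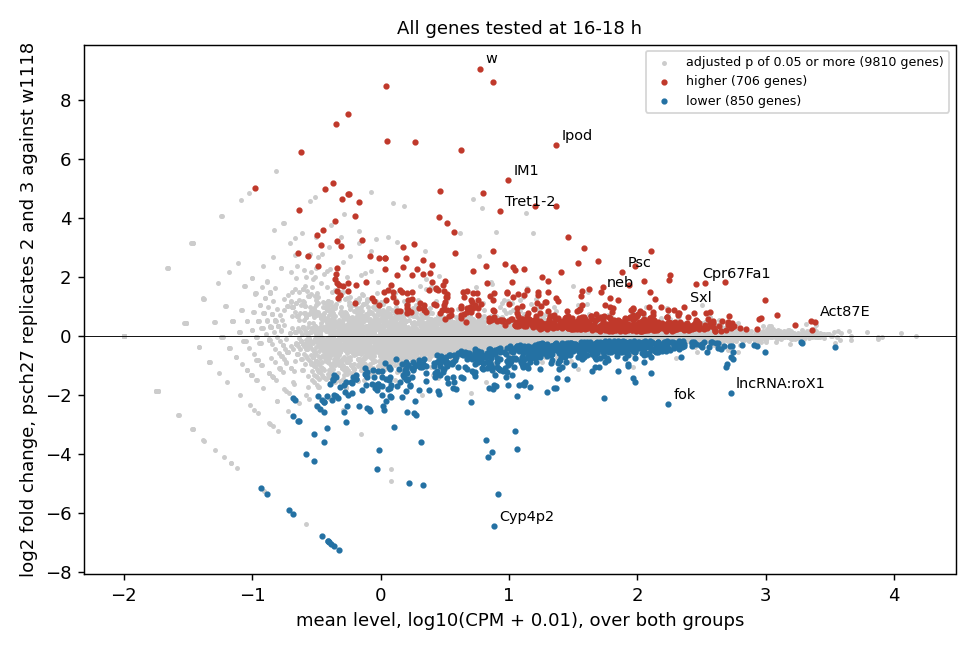
Log2 fold change of psch27 replicates 2 and 3 against w1118 (vertical axis) against the mean level (horizontal axis, log10 of CPM + 0.01), 1 point per gene, for 11366 genes. The 706 genes called higher are red and the 850 called lower are blue, and some of the genes described in the text, such as Psc and fok, are named.

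No other member of PRC1 and no member of PRC2 passed the test. Of 9 PRC1 genes tested, 2 rose (22.2%), Psc and Su(z)2, and none fell, against 6.21% and 7.48% of all genes, with a median of 0.11. The chromodomain gene Pc was 14.8 and 15.5 CPM in psch27 against 13.6 to 15.7 CPM in w1118 (0.03 ± 0.08, adjusted p = 0.85), and the polyhomeotic genes ph-p (0.11 ± 0.10) and ph-d (0.24 ± 0.12) and the ubiquitin ligase gene Sce (0.15 ± 0.09) were within 0.25 of the control. Of 8 PRC2 genes none passed, and E(z), the methyltransferase, was 26.7 and 24.8 CPM against 23.0 to 25.7 CPM (0.08 ± 0.08, adjusted p = 0.55). E(z) was lowest in psce22 (15.5 and 14.2 CPM) and psch27 replicate 1 (15.7 CPM), the columns that give the means of the table named ez731. It was 20.8 to 27.8 CPM in all other libraries of this age. Of 13 genes of Polycomb recruiters and of the deubiquitinase PR-DUB, only Trl, which encodes the GAGA factor, passed. It was 34.1 and 37.3 CPM against 49.8, 49.3 and 46.2 CPM and fell by 0.44 (adjusted p = 6.8e-04). In the 10 other mutant libraries Trl was also below w1118 (30.6 to 41.4 CPM). The psch27 libraries did not differ from the mean of these groups (0.10, adjusted p = 0.2). None of 12 trithorax group and coactivator genes passed, nej among them (0.25 ± 0.09, adjusted p = 0.071).

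Among the genes that Polycomb proteins are known to bind, most of the measured changes were below 0. Of 8 Hox genes, lab, which acts in the head, fell by 0.37 (21.1 and 22.9 CPM against 27.4, 31.1 and 27.1 CPM, adjusted p = 0.01), a call that was lost without psch27 replicate 2 (adjusted p = 0.12), and the other 7 did not pass. In the libraries of the other mutant groups lab was also below w1118 (16.5 to 25.4 CPM). The median of the 8 Hox genes was -0.09, and 2 had a change above 0. Their shares called higher and lower were 0% and 12.5%, against 6.21% and 7.48% of all genes. Antp was 67.3 and 66.8 CPM against 68.4, 68.7 and 82.8 CPM (-0.13 ± 0.10), and abd-A was 155 and 167 CPM against 140, 148 and 160 CPM (0.11 ± 0.08), and the groups overlapped for abd-A but not for Antp. Of 71 developmental regulators bound by Polycomb, 1 rose and 7 fell, with a median of -0.11 and a change above 0 in 18. These were shares of 1.41% and 9.86%, against 6.21% and 7.48% of all genes. The POU factor gene nub fell most clearly, from 72.2, 71.4 and 66.4 CPM in w1118 to 53.9 and 54.6 CPM in psch27 (-0.37 ± 0.07, adjusted p = 0.0036). Its fall held when any 1 of the 5 libraries was left out, but not with psch27 replicate 1 counted in (adjusted p = 0.61). In the other mutant groups nub was 50.9 to 58.5 CPM in Dfd1 and ez731, 81.4 and 76.4 CPM in psce22 and 8.55 to 10.4 CPM in SppsG8810. The psch27 libraries were above the mean of these groups (0.50, adjusted p = 3.2e-05). The calls of the homeobox genes al, ap, so and vnd, of wg, tsh and of sd, which rose, were each lost without at least 1 library, and 1 to 5 of the list fell in those fits. Of 16 segmentation genes, 3 had a change above 0. The pair-rule gene opa fell by 0.30 (adjusted p = 0.034) and wg by 0.27 (adjusted p = 0.047). The opa call was lost without psch27 replicate 2 (adjusted p = 0.12) or replicate 3 (0.21), without w1118 replicate 2 (0.14) or replicate 3 (0.056) and with DESeq2 (0.079), and the wg call likewise (0.27, 0.13, 0.16, 0.1 and 0.097).

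Transcripts of the dosage compensation and sex determination pathway differed strongly. Of the 12 genes tested 16.7% rose and 33.3% fell, against 6.21% and 7.48% of all genes. In male flies the roX RNAs and the protein MSL-2 are part of the complex that raises transcription of the X chromosome, and in females the RNA-binding protein Sxl blocks translation of msl-2. The roX1 RNA (X:3857230, lncRNA:roX1 in the files) was 232 and 206 CPM in psch27 replicates 2 and 3 and 844, 829 and 873 CPM in w1118. It fell by 1.95 ± 0.15 on the log2 scale (adjusted p = 6.9e-06), and lncRNA:roX2, at 9.09 and 7.82 CPM against 30.5, 29.2 and 34.5 CPM, fell by 1.89 (adjusted p = 1.0e-05). The gene msl-2 itself fell by 1.05 (16.5 and 17.4 CPM against 36.6, 34.1 and 34.4 CPM, adjusted p = 2.5e-05). The female switch gene Sxl went the other way, from 152, 147 and 171 CPM in w1118 to 294 and 323 CPM in psch27 (0.98 ± 0.07, adjusted p = 1.1e-06). All 4 genes had groups that did not overlap, and all 4 passed without any 1 of the 5 libraries. In the 10 libraries of the other mutant groups roX1 was 214 to 536 CPM and Sxl 236 to 310 CPM, all on the same side of w1118 as psch27. Of 12 genes of the list 2 rose and 4 fell, the other calls being sisA (2.82 ± 0.76, adjusted p = 0.024) and mof (-0.76 ± 0.22, adjusted p = 0.036), neither of which passed without psch27 replicate 2 (0.14 and 0.16), psch27 replicate 3 (0.067 and 0.19), w1118 replicate 1 (0.07 and 0.07) or w1118 replicate 2 (0.074 and 0.097). The paper says that male and female embryos were used in equal amounts, but the share of male embryos in a library was not measured. A different share and a different level per embryo cannot be told apart here.

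**Figure D3:**
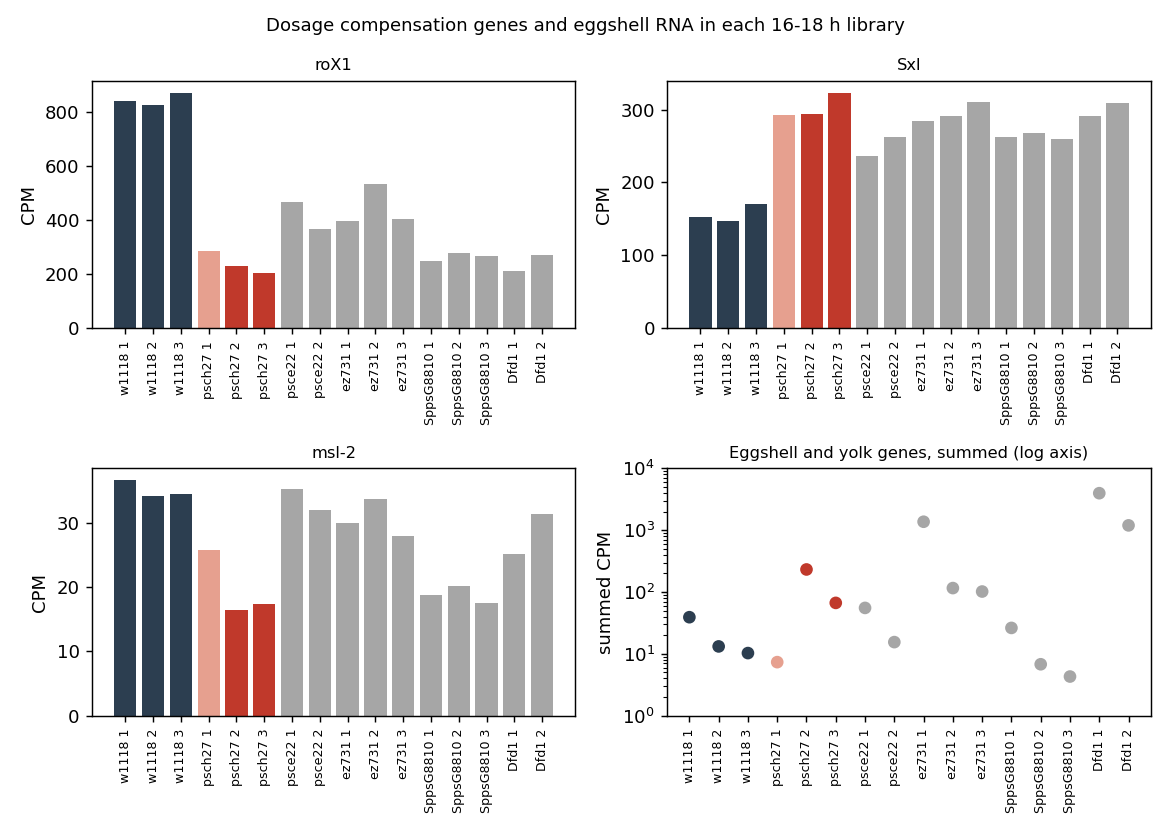
Level of roX1, Sxl and msl-2 (CPM, bars) and the summed level of 21 eggshell and yolk genes (summed CPM, points, log axis) in each of the 16 libraries, colored as in the plot of Psc by library. The red bars of psch27 replicates 2 and 3 lie at 232 and 206 CPM for roX1, below w1118 (829 to 873 CPM), and at 294 and 323 CPM for Sxl, above w1118 (147 to 171 CPM).

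Among the 12 largest rises were 5 genes of short secreted immune peptides, IM1, IM2, IM3, IM4 and IM14, which in flies are released into the hemolymph upon infection. IM1 was 22.8 and 15.6 CPM in psch27 and 0.102, 0.140 and 1.25 CPM in w1118 (5.27 ± 1.03, adjusted p = 0.0083). IM2, at 15.1 and 9.38 CPM against 0.204, 0.465 and 0.600 CPM, rose by 4.83 ± 0.92 (adjusted p = 0.0069), and these 2 calls held without any 1 library. The remaining ones, IM3 (4.40 ± 0.91, adjusted p = 0.012), IM4 (4.41 ± 0.97, adjusted p = 0.015) and IM14 (2.88 ± 0.55, adjusted p = 0.0052), were each higher in replicate 2 than in replicate 3, IM3 with 41.3 and 19.8 CPM. IM3 and IM4 did not pass without psch27 replicate 2 (adjusted p = 0.07 and 0.079) or without w1118 replicate 2 (0.052 and 0.061), nor IM4 without w1118 replicate 1 (0.059), nor IM14 without psch27 replicate 2 (0.0503). Of the 7 genes tested that were grouped by their IM symbol alone, IM33, the most abundant, was 126 and 110 CPM against 128, 109 and 101 CPM (0.07 ± 0.33, adjusted p = 0.94), and IM23 did not pass (3.34 ± 1.31, adjusted p = 0.13). Replicate 2 also held more of the eggshell RNA (232 against 66.8 CPM), and IM1 stood at 12.1 CPM in Dfd1 replicate 1 and 15.3 CPM in ez731 replicate 1, which held 3976 and 1373 CPM of it. The part of that RNA in the rise of the IM genes was not tested. IM1, IM2 and IM3 are neighbours at 2R:18383949, 2R:18386602 and 2R:18387895 and similar in sequence, so that their reads may be divided between them.

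Antimicrobial peptide and recognition genes outside that group showed no common direction. Of 17 tested, 2 rose (11.8%) and 1 fell (5.88%), against 6.21% and 7.48% of all genes. The complement-like genes Tep4 (218 and 231 CPM against 129, 126 and 107 CPM, 0.89 ± 0.09, adjusted p = 2.4e-05) and Tep2 (0.45 ± 0.10, adjusted p = 0.009) rose, and the peptidoglycan sensor gene PGRP-SD fell by 1.41 (2.53 and 1.46 CPM against 4.83, 5.86 and 5.2 CPM, adjusted p = 0.0027). Tep2 did not pass without either psch27 library (adjusted p = 0.062 and 0.063), nor PGRP-SD without psch27 replicate 3 (0.054). Drosomycin (Drs), the antifungal peptide, was low in each library (3.6 and 1.13 CPM against 0.204, 0 and 0.1 CPM, adjusted p = 0.1). The drosomycin-like gene Drsl5 was among the 12 largest falls, at 35.8 and 61.2 CPM against 141, 135 and 157 CPM (-1.57 ± 0.38, adjusted p = 0.022), a call lost without psch27 replicate 2 (0.18) or any 1 of the w1118 libraries (0.051 to 0.058).

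The other large rises were of unlike function, and several marked either the w1118 stock or these 2 libraries. Ipod, whose protein binds the methyltransferase Dnmt2, led the 12 rises, from 0.254, 0.651 and 0.650 CPM in w1118 to 30.2 and 62.1 CPM (6.45 ± 1.11, adjusted p = 0.0045), but it was 20.9 to 1079 CPM in all other mutant libraries. Here w1118 was the group that stood apart, and psch27 was below the mean of the other mutants (-2.24, adjusted p = 0.036). The pigment gene w was also nearly absent from w1118. It had 498 counts in the 2 psch27 libraries (10.5 and 13.3 CPM) and 1 count in the 3 w1118 libraries, a ratio of 729 with a 95% exact interval from 130.2 to 28830 that covers counting error only, and it was 0.383 to 23.3 CPM in the other mutants. By contrast the trehalose transporter gene Tret1-2 was 16.8 and 15.4 CPM in psch27, 0.698 to 0.967 CPM in w1118 and no more than 1.18 CPM in any other library (4.23 ± 0.31 against w1118, adjusted p = 1.1e-06). Replicate 1 of psch27 had 0.29 CPM of it. Eip71CD, a methionine sulfoxide reductase gene induced by ecdysone, rose from 28.9, 24.5 and 41.3 CPM to 152 and 169 CPM (2.35 ± 0.31, adjusted p = 7.6e-04), and the glycine methyltransferase gene Gnmt from 3.82, 3.39 and 3.45 CPM to 20.3 and 15.6 CPM (2.33 ± 0.29, adjusted p = 2.7e-04). For all of Ipod, w, Tret1-2, Eip71CD and Gnmt the call was kept without any 1 library.

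**Figure D4:**
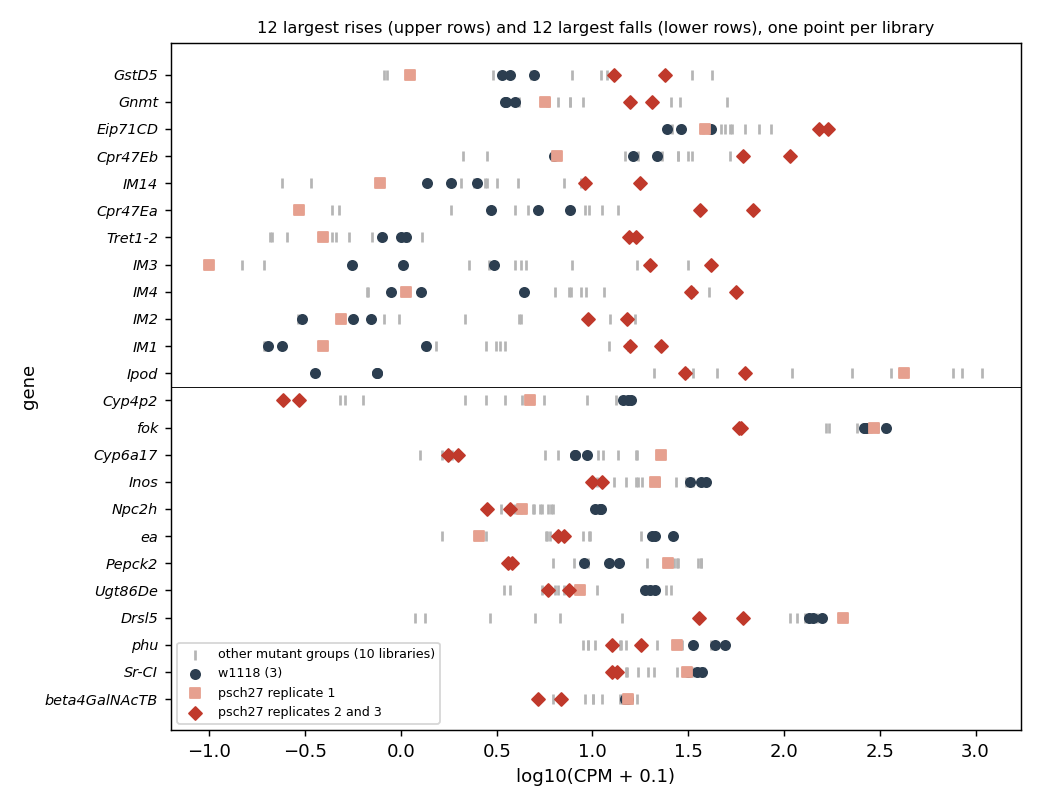
Level (log10 of CPM + 0.1) of the 12 genes with the largest rises and the 12 with the largest falls by the naming rule, 1 point per library: psch27 replicates 2 and 3 (red diamonds), psch27 replicate 1 (pale squares), w1118 (dark circles) and the 10 other mutant libraries (gray ticks). For Tret1-2 (16.8 and 15.4 CPM) the red points lie above all others and for fok (58.3 and 59.2 CPM) below all others, whereas for Ipod only w1118 lies apart from the rest.

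The first of the 12 largest falls was of Cyp4p2, a cytochrome P450 gene, from 15.2, 15.8 and 14.4 CPM in w1118 to 0.194 and 0.141 CPM in psch27 (-6.44 ± 0.32, adjusted p = 3.0e-08). The psch27 values rest on a few counts, since 3 counts correspond to 0.146 and 0.141 CPM. The second, fok, was at 342, 262 and 269 CPM in w1118 and 58.3 and 59.2 CPM in psch27 (-2.31 ± 0.11, adjusted p = 2.3e-08), with 165 to 334 CPM in all 10 libraries of the other mutant groups. It lies on 2L (20079270-20085070, minus strand) within the span of the kinesin gene neb (20075757-20089698, plus strand), which was chosen after its values were seen. neb was 81.1 and 72.7 CPM against 23.4, 29.0 and 30.4 CPM and rose by 1.48 ± 0.12 (adjusted p = 5.4e-06). The strand setting of the counting is not given in the sources used here, so reads of these overlapping genes may not be fully separated. Cyp6a17 fell by 2.25 (adjusted p = 2.6e-05), Inos, which makes inositol phosphate, by 1.78 (adjusted p = 0.0035), the sterol-binding gene Npc2h by 1.75 (adjusted p = 4.8e-06) and the protease gene ea by 1.74 (adjusted p = 5.5e-04). In the 10 other mutant libraries Npc2h was 3.24 to 6.13 CPM and ea 1.54 to 17.9 CPM. All of these lay below w1118 (10.2 to 11 and 20.4 to 26.3 CPM). Against the mean of the other groups ea did not differ (0.14, adjusted p = 0.65) and Npc2h was lower (-0.60, adjusted p = 0.0029). In SppsG8810 Cyp6a17 was 1.16 to 1.74 CPM and Cyp4p2 0.381 to 0.537 CPM. In the other 3 groups they were 5.55 to 17 and 2.06 to 13.1 CPM. Pepck2, a gluconeogenic enzyme gene, was 3.5 and 3.72 CPM against 8.95, 13.6 and 12.1 CPM (-1.68 ± 0.21, adjusted p = 2.2e-04), and the scavenger receptor gene Sr-CI was 12.5 and 13.4 CPM against 37.4, 35.1 and 31.6 CPM (-1.42 ± 0.11, adjusted p = 1.1e-06). The glycosyltransferase genes Ugt86De (-1.58 ± 0.18, adjusted p = 6.8e-05) and beta4GalNAcTB (-1.34 ± 0.15, adjusted p = 6.8e-05) completed the falls together with phu (-1.46 ± 0.31, adjusted p = 0.012), which did not pass without psch27 replicate 3 (adjusted p = 0.11).

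Within the P450 family more genes fell than rose. P450 enzymes oxidize hormones, fatty acids and foreign compounds. Of 76 tested, 6 rose (7.89%) and 13 fell (17.1%, against 7.48% of all genes), with a median of -0.11. Falls included Cyp4e1 (3.94 and 3.96 CPM against 8.45, 7.91 and 9.3 CPM, -1.11 ± 0.15, adjusted p = 1.9e-04) and Cyp4g1, which makes cuticular hydrocarbons in oenocytes (105 and 113 CPM against 138, 145 and 143 CPM, -0.38 ± 0.05, adjusted p = 2.7e-04), while Cyp6a9 rose from 7.22, 5.81 and 6 CPM to 16.8 and 17.3 CPM (1.43 ± 0.18, adjusted p = 1.6e-04). With 1 library left out at a time, 9 to 14 of them fell and 2 or 3 rose. Of 35 glutathione transferase genes, which conjugate toxic compounds, 6 rose (17.1%) and 5 fell (14.3%), against 6.21% and 7.48% of all genes. GstD5 rose most, from 3.61, 3.26 and 4.85 CPM to 12.8 and 23.7 CPM (2.23 ± 0.35, adjusted p = 0.0016), and GstZ1, an enzyme gene of tyrosine breakdown, fell from 7.28, 7.72 and 7.85 CPM to 4.28 and 4.15 CPM (-0.85 ± 0.14, adjusted p = 0.001). Only 1 to 5 fell and 2 to 5 rose in this family without 1 library.

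Of the DNA damage, repair and apoptosis genes several rose, while the median of the list stayed near that of all genes (-0.002). Of 23 tested, 8 rose (34.8%, against 6.21% of all genes) and 1 fell, while the median was 0.03. The double-strand break repair gene mre11 was 47.4 and 45.6 CPM in psch27 and 24.5, 23.9 and 25.4 CPM in w1118 (0.92 ± 0.14, adjusted p = 6.6e-04). The photolyase gene phr was 20.8 and 19.8 CPM against 10.4, 11.9 and 10.4 CPM (0.90 ± 0.14, adjusted p = 7.4e-04). Xrp1, a stress transcription factor gene, was 967 and 1150 CPM against 683, 766 and 699 CPM (0.56 ± 0.09, adjusted p = 6.7e-04). In the other mutant groups Xrp1 was also above w1118 (840 to 1450 CPM), and psch27 did not differ from their mean (-0.09, adjusted p = 0.41). These 3 calls held without any 1 library, and the other 5 were each lost without at least 1. The end-binding gene Ku80 (7.73 and 12 CPM against 5.29, 5.91 and 5.4 CPM, adjusted p = 0.0091) and the death gene hid (17.7 and 19.5 CPM against 11.5, 12.6 and 13.9 CPM, adjusted p = 0.006) did not pass without psch27 replicate 3 (0.2 and 0.077), and 4 to 7 of the list rose in the fits without 1 library. The other photolyase gene, phr6-4, fell by 1.65 (0.777 and 0.848 CPM against 2.19, 2.56 and 2.95 CPM, adjusted p = 0.0082), a call lost without either psch27 library (0.081 and 0.063).

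Genes of neuronal signaling that passed were all higher. Of 24 synapse and neuronal genes, 7 rose (29.2%) and none fell, against 6.21% and 7.48% of all genes, with a median of 0.19. The dopamine transporter gene DAT was 42.2 and 43.2 CPM in psch27 and 28.5, 25.4 and 29.8 CPM in w1118 (0.61 ± 0.08, adjusted p = 2.6e-04). The tyrosine hydroxylase gene ple, which serves dopamine synthesis and cuticle tanning, was 52.2 and 57.6 CPM against 43.0, 35.9 and 36.0 CPM (0.52 ± 0.10, adjusted p = 0.0027), and both calls held without any 1 library. In the other mutant groups ple was higher still (70 to 122 CPM), and psch27 was below their mean (-0.70, adjusted p = 3.9e-05). The ion channel genes para (188 and 226 CPM against 133, 128 and 139 CPM, 0.64 ± 0.12, adjusted p = 0.004), Sh (0.58 ± 0.12, adjusted p = 0.0047) and cac (0.40 ± 0.10, adjusted p = 0.017) also rose against w1118. All of these channel calls were lost without psch27 replicate 3 (adjusted p = 0.063, 0.054 and 0.21), when 3 of the list were called higher, and that of cac also without w1118 replicate 1 (0.063) or replicate 2 (0.061). The rise of Tbh, which makes octopamine, was lost without psch27 replicate 2 (0.12), and that of Syx1A without psch27 replicate 3 (0.26) or any 1 of the w1118 libraries (0.07, 0.081 and 0.059). The neuronal marker genes summed to 1935 and 2084 CPM in psch27 and 1758 to 1914 CPM in w1118. In the ELAV family of neuronal RNA-binding proteins, which act on 3′ end choice, elav was 163 and 197 CPM against 161, 177 and 195 CPM (0.02 ± 0.10) and fne 239 and 279 CPM against 183, 196 and 240 CPM (0.33 ± 0.11, adjusted p = 0.064). Rbp9 fell by 0.53, from 61.2, 65.9 and 63.1 CPM to 43.1 and 44.6 CPM (adjusted p = 6.2e-05). Among 14 cleavage and polyadenylation factor genes, su(f) (-0.30 ± 0.06, adjusted p = 0.0033) and Pabp2 (-0.37 ± 0.07, adjusted p = 0.0037) fell and none rose. These were shares of 14.3% lower and 0% higher, against 7.48% and 6.21% of all genes. The Pabp2 call was lost without psch27 replicate 2.

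In lists for other tissues of the embryo the counts were small, and of all genes 6.21% were higher and 7.48% lower. Shares higher and lower were 9.09% and 18.2% for glia, 8.33% and 8.33% for muscle and 14.3% and 0% for hemocytes. They were 0% and 18.2% for the E(spl) complex, 0% and 5.62% for ribosomal proteins and 4.41% and 1.47% for the respiratory chain. Of 11 glial genes 1 rose and 2 fell, with Gs2, a glutamine synthetase gene, at 416 and 436 CPM against 350, 310 and 283 CPM (0.44 ± 0.09, adjusted p = 0.0045) and alrm, an astrocyte gene, at 133 and 134 CPM against 166, 168 and 157 CPM (-0.29 ± 0.06, adjusted p = 0.0038). The Gs2 call was lost without psch27 replicate 3 (adjusted p = 0.055). Of 24 muscle genes 2 rose and 2 fell, and without psch27 replicate 2, psch27 replicate 3 or w1118 replicate 2 only 1 rose and none fell, as none fell without w1118 replicate 3. The actin gene Act87E, at 2763 and 2835 CPM against 1952, 1997 and 2062 CPM, rose by 0.48 ± 0.05 (adjusted p = 1.1e-05). Summed muscle markers were 35896 and 36095 CPM in psch27 and 33747 to 35400 CPM in w1118. Neuroblast markers (4 genes) summed to 65 to 66.1 CPM in psch27 and 46.7 to 55.2 CPM in w1118, and the groups did not overlap. The largest part of that sum was mira (42.8 and 43.8 CPM against 27.3, 32.9 and 34.3 CPM, 0.46 ± 0.13, adjusted p = 0.039). The mira call was lost without psch27 replicate 2 or replicate 3. It was also lost without w1118 replicate 1 (0.12) or replicate 2 (0.074), and with the replicate number as a block (0.064). Of 17 neuroblast genes tested, 1 rose (mira, 5.88%) and 1 fell (nub, 5.88%), with a median of 0.01. Of 11 genes of the E(spl) complex, the targets of Notch, 2 fell and none rose, with a median of -0.30, and E(spl)mbeta-HLH fell from 31.2, 32.8 and 31.3 CPM to 19.1 and 21.5 CPM (-0.65 ± 0.07, adjusted p = 6.2e-05). In the other mutant groups E(spl)mbeta-HLH was also below w1118 (16.4 to 25.8 CPM), and psch27 did not differ from their mean (0.05, adjusted p = 0.59). In the hemocyte list lz, which directs crystal cell fate, rose from 1.22, 1.53 and 1.2 CPM to 4.32 and 3.72 CPM (1.60 ± 0.28, adjusted p = 0.0017) and Tig, a matrix gene, rose by 0.37 (adjusted p = 0.0084), which was lost without psch27 replicate 3 (0.091), while the other 12 members did not pass. None of 24 cell cycle genes passed. Of 89 cytosolic ribosomal protein genes none rose and 5 fell (1 without psch27 replicate 3, 2 without w1118 replicate 2 or 3 and 3 without w1118 replicate 1), the clearest being the variant gene RpL22-like (3.45 and 2.78 CPM against 7.99, 6.65 and 7.95 CPM, -1.27 ± 0.18, adjusted p = 3.7e-04). Of 68 nuclear respiratory chain genes 3 rose and 1 fell, but none rose without psch27 replicate 2 and 1 rose without any 1 of the w1118 libraries, and none fell without psch27 replicate 3, w1118 replicate 1 or w1118 replicate 3.

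Among cuticle genes single members changed strongly. The shares of all genes to set beside the counts below were 6.21% higher and 7.48% lower. At this age the epidermis secretes the larval cuticle. Markers of epidermis and cuticle summed to 687 to 712 CPM in psch27 and 550 to 583 CPM in w1118, and their part in the changes of cuticle genes was not tested. Of 108 cuticle protein genes tested, 10 rose (9.26%) and 5 fell (4.63%), with a median of 0.03, and 6 to 9 rose and 3 or 4 fell with 1 library left out. Cpr67Fa1 was 419 and 471 CPM in psch27 against 125, 121 and 149 CPM in w1118 (1.76 ± 0.10, adjusted p = 1.3e-07), and its neighbour Cpr67Fa2 was 238 and 264 CPM against 135, 133 and 139 CPM (0.89 ± 0.11, adjusted p = 1.5e-04). The adjacent genes Cpr47Ea (68.9 and 36.1 CPM against 2.85, 5.12 and 7.55 CPM, 3.34 ± 0.44, adjusted p = 7.4e-04) and Cpr47Eb (107 and 61.2 CPM against 6.16, 16.1 and 21.6 CPM, 2.52 ± 0.58, adjusted p = 0.019) rose as well, the latter not without psch27 replicate 2 (adjusted p = 0.13) or w1118 replicate 2 (0.058), or with only the groups compared in the fit (0.091). In each of these pairs the members are alike, and reads may be divided between them. Cpr49Ad went down from 3.66, 2.88 and 3.1 CPM to 0.0972 and 0.0942 CPM (adjusted p = 2.4e-04), levels below 3 counts. Of the Osiris family, 1 of 18 genes passed: Osi2 was 641 and 404 CPM against 104, 154 and 196 CPM (1.79 ± 0.28, adjusted p = 0.0024), a call lost with only the groups compared in the fit (0.072). The pigmentation gene y rose from 108, 101 and 92.5 CPM to 171 and 160 CPM (0.72 ± 0.14, adjusted p = 0.0057), a call lost without psch27 replicate 2 (0.059). Among 25 ecdysone genes 3 rose (12%) and none fell, with nvd, which acts early in ecdysone synthesis, at 4.08 and 4.29 CPM against 1.93, 1.95 and 2.25 CPM (1.03 ± 0.18, adjusted p = 0.0014).

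**Figure D5:**
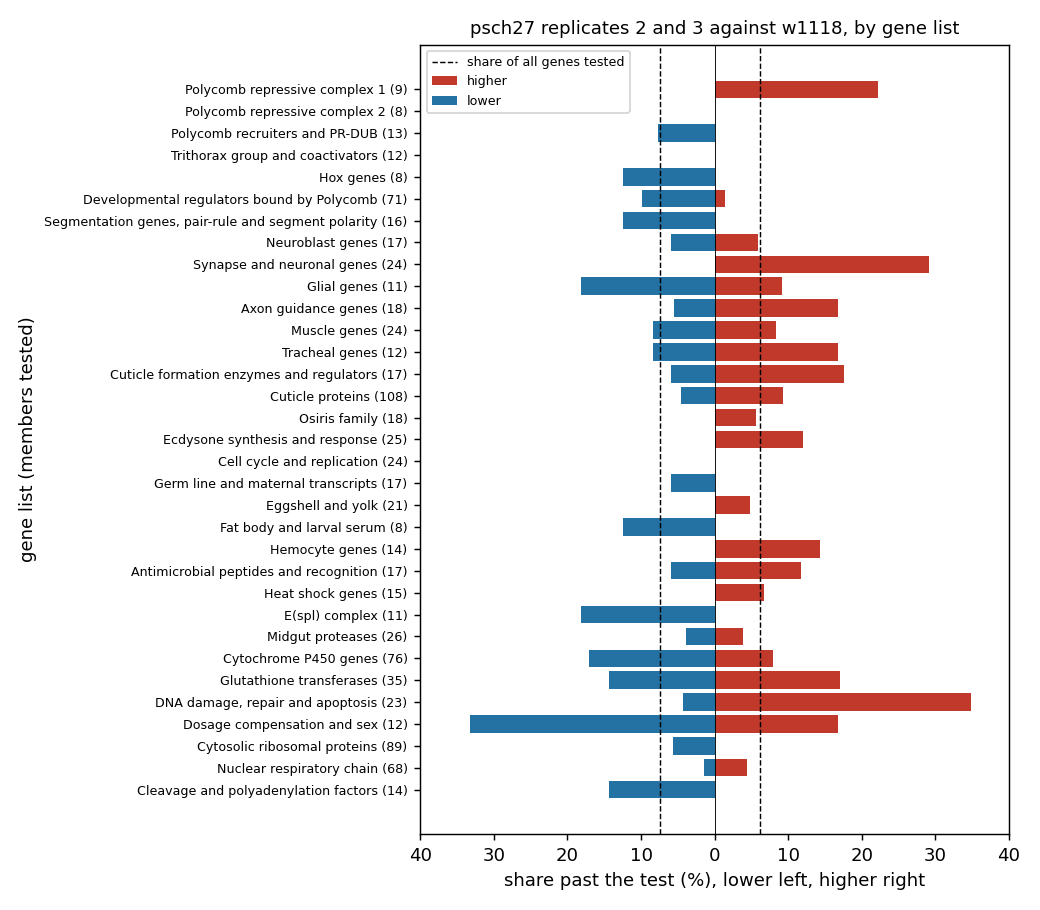
Share (%) of the tested members of each gene list that passed the test against w1118, higher to the right (red) and lower to the left (blue), with the number tested in brackets and dashed lines at the shares of all genes (6.21% higher, 7.48% lower). Lists with 8 or more tested members are drawn, and the DNA damage list (34.8% higher) and the synapse and neuronal list (29.2% higher) reach farthest to the right.

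The eggshell and yolk list had a median of 2.87, but 1 of its 21 genes passed (4.76% higher, against 6.21% of all genes). That gene, Vm32E of the vitelline membrane, was 9.18 and 2.07 CPM in psch27 and 0.509, 0.0465 and 0 CPM in w1118 (adjusted p = 0.033), and the call was lost without psch27 replicate 2 (0.26), w1118 replicate 2 (0.11) or w1118 replicate 3 (0.097). DESeq2 called 5 of the list higher. Replicate 2 held more than replicate 3 for other members too, such as the chorion gene Cp36 (15.5 and 4.66 CPM against 0.916, 0.279 and 0 CPM, adjusted p = 0.18).

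Against the other mutant groups more genes were called for the same 2 libraries than against w1118. The other groups hold 10 libraries and w1118 holds 3, so the counts of calls are not directly comparable. The comparison set the psch27 term against the mean of the terms of Dfd1, ez731, psce22 and SppsG8810, each weighted equally. It called 4093 of 11366 genes (36%), 2526 higher (22.2%) and 1567 lower (13.8%). By more than 2-fold, 4.25% of all genes were higher and 2.73% lower. Libraries did not overlap in 7.46% of genes: in 441 genes (3.88%) both psch27 libraries were above all 10 libraries of the other groups, and in 407 (3.58%) both were below. Without psch27 replicate 2 the count of calls was 2049 and without replicate 3 it was 2583. LManIII, a lysosomal mannosidase gene, was 16.9 and 16.0 CPM in psch27 against 0.187 to 11.9 CPM in the 10 libraries (3.64, adjusted p = 2.6e-10), and its neighbour LManV was 337 and 360 CPM against 29.5 to 248 CPM (2.01, adjusted p = 5.0e-09). Cpr67Fa1 was above the others by 2.22 (50.7 to 308 CPM, adjusted p = 2.9e-10), and Cpr47Ea by 4.27, Cpr47Eb by 2.45 and IM1 by 3.43 (adjusted p = 8.8e-06, 0.0021 and 0.004). Cpr65Ec (417 and 375 CPM against 16.1 to 314 CPM, 2.17, adjusted p = 2.4e-06) and Cyp304a1 (402 and 275 CPM against 33.8 to 159 CPM, 2.11, adjusted p = 9.3e-08) were the remaining genes of the 8 highest. Cpr65Ec lay above the other mutants but did not differ from w1118 past the threshold (349, 301 and 289 CPM, 0.34 ± 0.20, adjusted p = 0.31), and the rise of Cyp304a1 against w1118 (0.54 ± 0.14, adjusted p = 0.03) was lost without psch27 replicate 2 (0.37), w1118 replicate 1 (0.088), w1118 replicate 2 (0.085) or w1118 replicate 3. The SppsG8810 libraries came closest for LManIII and Cpr67Fa1, with 8.06 to 11.9 CPM of LManIII and 296 to 308 CPM of Cpr67Fa1.

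The 8 lowest genes of this comparison included 2 already described, fok (-2.06, adjusted p = 6.1e-09) and Pepck2 (-2.51, adjusted p = 1.4e-06, 6.13 to 36.9 CPM in the others). The double-stranded RNA-binding gene blanks (0.34 and 0.66 CPM against 1.52 to 21.7 CPM, -3.06, adjusted p = 6.4e-06) and the piRNA gene mael (2.28 and 1.55 CPM against 3.65 to 21.8 CPM, -2.15, adjusted p = 6.0e-05) were also lower than w1118, by 2.68 (adjusted p = 1.2e-04) and 1.13 (adjusted p = 0.023). The mael call against w1118 was lost without either psch27 library (0.053 and 0.21) or without w1118 replicate 1 (0.063). For spz4 (2.96 and 3.06 CPM against 3.71 to 74.5 CPM), the cuticle gene Cpr64Ac, the arrestin gene Arr2 and Osi17 the difference from w1118 did not pass (adjusted p = 0.73, 0.24, 0.15 and 0.93). In w1118 at 14-16 h, normalized separately, spz4 was 196 CPM and Osi17 229 CPM, against 4.37 and 0.634 CPM at 16-18 h. The rest of the 8 lowest genes were lower in w1118 at 14-16 h than at 16-18 h. The part of embryo age within the collection window in these differences was not tested. Psc was higher than the mean of the other groups by 1.30 (adjusted p = 1.9e-08), although the SppsG8810 libraries exceeded it.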

How the data were processed

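RNA of whole embryos was sequenced, and per the labels and methods the authors aligned reads to dm6 (STAR, Ensembl release 96) and counted them with featureCounts. The strand setting is not given in the sources used here. The deposited counts are raw reads per gene. The deposited tables named after alleles hold a signal, the mean of DESeq2-normalized counts over the libraries compared, used here only to identify columns (genes with a mean above 10). Their fold changes and p-values are the authors' own comparisons and were not used.

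Genes were kept with filterByExpr (11366 of 17753), scaled by TMM and tested with edgeR 4.0.16 (quasi-likelihood test, limma 3.58.1, R 4.3.3), with Benjamini-Hochberg adjustment over all genes. All 16 libraries of 16-18 h entered the fit, with psch27 replicate 1 as a term of its own and 9 residual degrees of freedom. Alternatives were DESeq2 1.42.0, RLE size factors, no filter, only the groups compared, the replicate number as a block, psch27 replicate 1 counted with replicates 2 and 3, leaving out each library, and, chosen after seeing the data, leaving out the Dfd1 libraries. In simulated counts for the comparison with w1118 over 11366 genes, 67, 67 and 66 genes were changed by 1.5-, 2- and 4-fold. Of these 40.3%, 62.7% and 90.9% were recovered, with 3.01% false among 133 calls. Apart from these changes each gene had the same mean in every library, without differences among the groups. The rates hold for that setting and may differ in the real counts, where more genes changed. Tables and figures were made with Python 3.11.15, pandas 2.3.3, scipy 1.17.1 and matplotlib 3.10.9.

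Named were Psc, the 12 largest rises and 12 largest falls among called genes with a mean of at least 5 CPM and groups that did not overlap, up to 5 members of each list by adjusted p, and the 8 highest and 8 lowest genes against the other mutant groups (5 CPM over the 12 libraries of that comparison), passing over genes with only numbered symbols, RNA genes, transposons and histones. Genes outside that rule (CG13323, CR45140, CG44251, neb, Pc, IM23, IM33, Ku80, Cp36, so, tsh, mof, cac and Syx1A) were chosen after their values were seen. The members and lists were chosen with earlier results of these data known. Of the symbols in the 36 lists, 11 were not matched. Positions come from Ensembl release 115 on dm6. Total counts per library limit precision as given with the results, and intervals and floors (3 counts) cover counting error only.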

Additional observations from a re-analysis of the deposited data

Results flagged for a closer look

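In psch27 replicate 1, the library the comparisons did not use, Ipod stood at 423 CPM, above the highest w1118 library (0.651 CPM). In the same library Gnmt stood at 5.56 CPM, above the highest w1118 library (3.82 CPM). Both are given as values of a library outside the main measurement, and no test was run on them.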

How the results depend on the processing

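The count of genes called against w1118 (1556) was 1544 with RLE size factors, 1418 without the filter, 1460 with DESeq2, 2019 with only the groups compared and 1793 without the Dfd1 libraries, a setting chosen after seeing the data. The replicate numbers do not pair the libraries (correlation of deviations -0.028 for number 2 and 0.124 for number 3), and with the replicate block 1489 genes were called against w1118 and 3638 against the other mutant groups. With psch27 replicate 1 counted with replicates 2 and 3, as the labels group them, 851 genes were called against w1118 (396 higher, 455 lower) and 845 against the other mutant groups (649 higher, 196 lower), and the changes of Cyp6a17 (0.05), kon (0.06), Adh (1.11) and ND-B16.6 (-0.02) took the opposite sign. Leaving out 1 library at a time gave 724 to 1245 calls against w1118 (342 to 558 higher, 382 to 687 lower) and, for the psch27 libraries, 2049 to 2583 against the other mutant groups (1442 to 1710 higher, 607 to 873 lower), where an arm of 1 library was assumed to vary like the other groups. Of 126 followed genes called against w1118, 121 kept the call with DESeq2, 123 with RLE size factors, 120 without the filter, 117 of 124 with only the groups compared, 117 with the block, 61 with psch27 replicate 1 counted in (61 lost, among them fok at adjusted p = 0.22, Cpr67Fa1 at 0.17, mre11 at 0.43 and Act87E at 0.81, and 4 reversed), 79 without psch27 replicate 2, 84 without psch27 replicate 3, and 103, 95 and 107 without w1118 replicates 1, 2 and 3. With 3 counts in a library equal to 0.14 to 0.153 CPM, levels below about that were not distinguishable from 0.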
